A study of Mus musculus with 4 samples.

Results

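A set of 38 genes that encode bone morphogenetic protein (BMP), activin and transforming growth factor beta (TGF-beta) signalling proteins was followed in mouse retinal cells sorted as amacrine cells. Amacrine cells are inhibitory neurons that modulate signalling in the inner layers of the retina. Markers of other retinal cells were also present in these libraries, as given below. The members were the rows of the gene count table whose gene name stood on a fixed list, and all 38 were found among 55471 genes: 7 BMP and growth differentiation factor (GDF) ligands, 2 activin subunits, 3 TGF-beta ligands, 6 type I and 4 type II receptors, 1 co-receptor, 5 receptor-regulated SMADs, 1 common SMAD, 2 inhibitory SMADs, 4 secreted antagonists and 3 follistatin-like proteins.

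RNA came from retinas of C57BL6 mice at postnatal days 6 to 7 that carried the allele Gbx2-CreERT2-IRES-EGFP together with Ai9, a reporter; both are shared by the animals of both fractions. The inducible Cre recombinase and the green protein EGFP are made from the Gbx2 locus, and Ai9 makes the red protein tdTomato in any cell where Cre has acted and in its descendants, so red cells need not still express Gbx2. The sources used here give no time or dose of tamoxifen, the inducer of this Cre. Red cells were sorted into a GFP-positive fraction (cell type 2 of the series; replicates 2 and 3) and a GFP-negative fraction (cell type 1; replicates 2 and 6), with 750 to 2500 cells per RNA sample and 2 libraries per fraction.

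Signalling in this family starts with secreted dimeric ligands that bring together type I and type II receptor kinases. BMP receptors phosphorylate SMAD1, SMAD5 and SMAD9, and activin and TGF-beta receptors phosphorylate SMAD2 and SMAD3. These then enter the nucleus with SMAD4, while SMAD6 and SMAD7 restrain the pathway inside the cell and noggin, chordin, gremlin and follistatin bind ligands outside it. In the developing retina BMPs are known for dorsoventral patterning.

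The libraries held 41040667 to 44689917 gene counts, with 21363 to 22626 genes detected in each. Gbx2 stood at 602 and 496 CPM, the usual per-million scale with TMM-adjusted library totals, in GFP-positive replicates 2 and 3, against 28.7 and 55.5 CPM in GFP-negative replicates 2 and 6, so the gene behind the sort was higher in the fraction labelled GFP-positive. All 10 amacrine markers were detected in every library. They summed to 2490 and 1610 CPM in the GFP-positive libraries, against 3710 and 5680 CPM in the GFP-negative libraries. Pax6 was the largest part of each sum and overlapped between the fractions. Slc6a9 was higher in GFP-positive libraries, at 85.8 and 74.7 CPM, against 54.3 and 31.4 CPM in GFP-negative libraries. The other amacrine markers were lower in both GFP-positive libraries. Rod photoreceptor markers, 13 genes with none at 0 in any library, summed to 9180 and 15500 CPM in the GFP-positive libraries, against 7920 and 1990 CPM in the GFP-negative libraries. Summed rod markers thus exceeded summed amacrine markers in 3 of the 4 libraries, and the rod sums did not overlap between the fractions. Singly, Nr2e3, Gnat1 and Cnga1 overlapped, and the other rod markers were higher in both GFP-positive libraries. Summed bipolar cell markers (9 genes) ran in the same library order as the rod sums. They stood at 1330 and 1830 CPM in GFP-positive against 1090 and 435 CPM in GFP-negative libraries. Of these markers, Prkca was lower in both GFP-positive libraries, Cabp5 overlapped and the others were higher in both. Summed ganglion cell markers (8 genes) ran in the reverse order, at 157 and 68.6 CPM in GFP-positive against 233 and 272 CPM in GFP-negative libraries. The ganglion list was mixed. Nefl, the largest part of each sum, Pou4f2 and Slc17a6 were lower in both GFP-positive libraries, and Pou4f1, Sncg and Thy1 overlapped. Rbpms, at 28.9 and 26.0 CPM in GFP-positive against 10.1 and 7.35 CPM in GFP-negative libraries, and Pou4f3 were higher. In bulk RNA, fewer cells of a type and less RNA per cell cannot be told apart. The series describes its replicates as biological and from 3 litters, without saying which library came from which litter.

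Differences were tested with edgeR's quasi-likelihood test over 17940 genes, as GFP-positive minus GFP-negative, and an adjusted p under 0.05 made a call. Of the 38 members, 36 were tested and 2 were called, Fst and Fstl5, both lower in GFP-positive cells. Over all tested genes 1.10% were called, 0.870% lower and 0.234% higher in GFP-positive cells. No member was called higher, and edgeR's legacy quasi-likelihood fit called none (adjusted p = 0.0724 for Fst and 0.104 for Fstl5). At an unadjusted p under 0.05 stood 8 of the 36 tested members, against 12.6% of all tested genes. Among tested members the log2 fold changes had a median of -0.07, beside 0.04 for all tested genes, with 18 members above and 18 below 0. The CPM values of the fractions did not overlap for 18 of the 36 tested members, 7 higher and 11 lower in GFP-positive cells, a share near the 43.8% of all tested genes (22.5% higher, 21.3% lower), so that count shows nothing about the members. Acvr1c and Bmp6 passed the filter on low counts through the GFP-negative libraries only, and Bmp4 and Smad9 did not pass it.

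**Figure D1:**
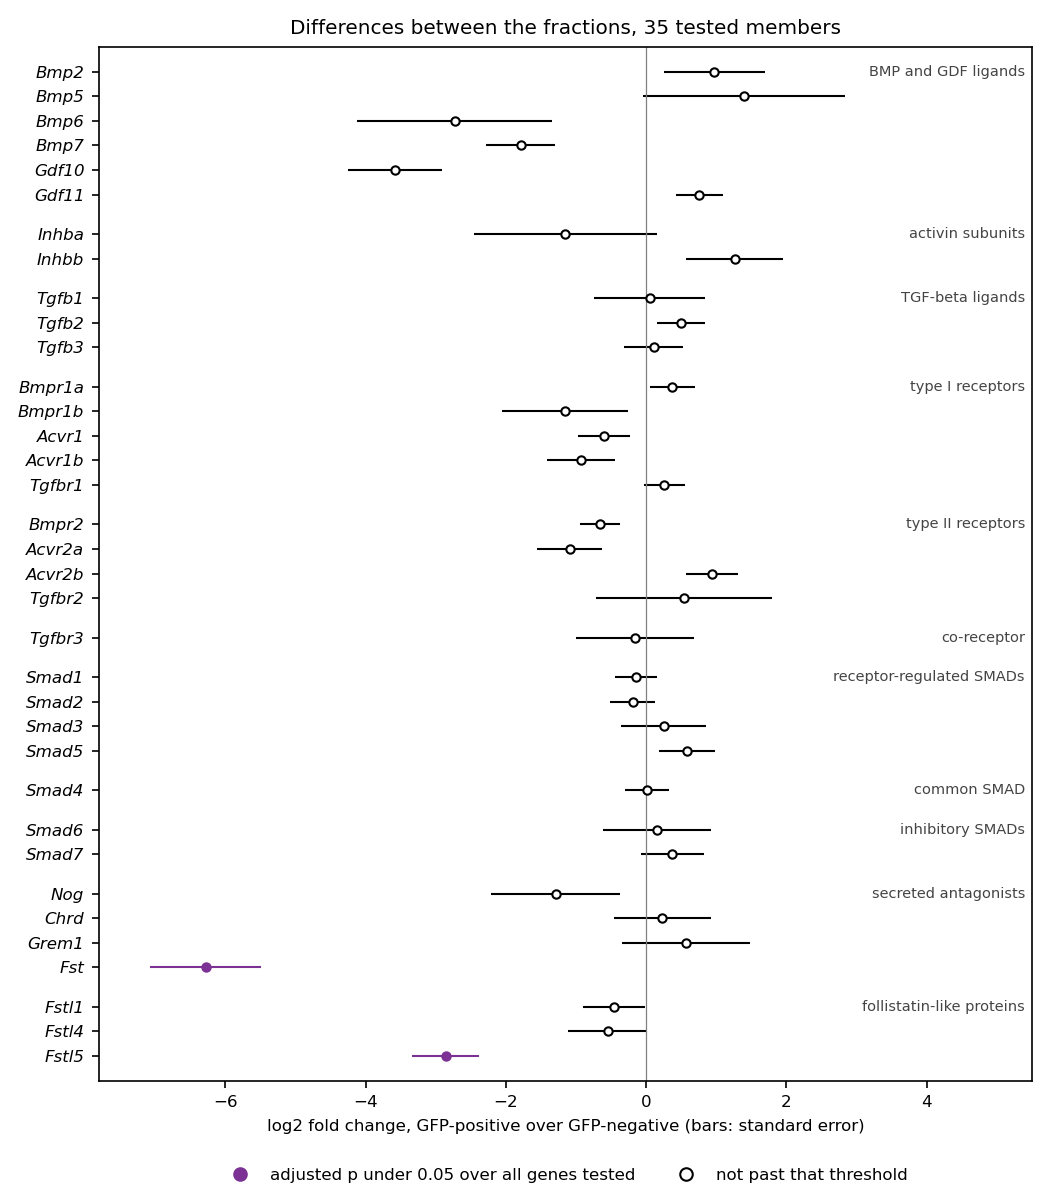
Log2 fold change of GFP-positive over GFP-negative cells (x axis) for 35 of the 36 tested members, ordered by role; bars are standard errors. Acvr1c, at 0 counts in both GFP-positive libraries, is left out because its fitted value depends on a prior count. Fst at -6.28 and Fstl5 at -2.86 are the filled points.

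Fst encodes follistatin, a secreted protein that binds activins, and more weakly some BMPs, and keeps them from their receptors. The gene (ENSMUSG00000021765) lies on chromosome 13 at 114452290 to 114458951, minus strand, GRCm38. It had 15 and 67 counts in GFP-positive replicates 2 and 3, against 1317 and 3767 counts in GFP-negative replicates 2 and 6, or 0.328 and 1.41 CPM against 31.5 and 105 CPM. Both GFP-negative libraries were far above both GFP-positive libraries, with no overlap. Means were 0.869 ± 0.764 CPM for GFP-positive and 68.3 ± 52.1 CPM for GFP-negative libraries (SD, n = 2 each), a 78.7-fold lower level, and the log2 fold change was -6.28 ± 0.79 (standard error here and below; edgeR adjusted p = 0.0125). GFP-positive replicate 2 and GFP-negative replicate 2, the libraries closest in summed rod markers, differed 96.0-fold in Fst. These libraries also differed in summed amacrine markers, at 2490 against 3710 CPM. For genes whose fractions do not overlap, here and below, any such pair must differ in the same direction. The part of rod RNA was not tested. Over 14 alternative settings the direction held in each, and the adjusted p ran from 2.1e-15 (DESeq2) to 0.162 (limma-voom). Where fractions do not overlap, leaving out a library can hardly turn the sign. Leaving out GFP-positive replicate 2, GFP-positive replicate 3 or GFP-negative replicate 6 ended the edgeR call, with adjusted p-values of 0.0944, 0.129 and 0.0919 in that order. Its log2 fold change ran from -5.16 with GFP-negative replicate 6 left out to -7.70 with GFP-positive replicate 3 left out.

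The other 3 antagonists did not pass the test. Noggin, a BMP antagonist, is encoded by Nog, which had 0.35 and 0.505 CPM in GFP-positive cells, against 1.1 and 1.01 CPM in GFP-negative cells (log2 fold change -1.29 ± 0.92, edgeR adjusted p = 0.612); these are 16 to 46 counts per library, low in all 4. Chrd, for the BMP antagonist chordin, had 6.89 and 3.83 CPM in GFP-positive libraries, against 6.74 and 2.23 CPM in GFP-negative libraries, which overlapped. Grem1, for gremlin, lay between 0.744 and 3.97 CPM with both extremes in GFP-positive libraries. Among these 4 antagonists Fst had the highest level per length in GFP-negative cells, at 6.86 and 22.9 RPKM (CPM per kilobase of exonic length), and its level in GFP-positive cells was 0.0715 and 0.307 RPKM.

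Fstl5 encodes a secreted follistatin-like protein and was the other called member. It lies on chromosome 3 at 76074270 to 76710019, plus strand, GRCm38 (ENSMUSG00000034098). It had 106 and 68.5 CPM in GFP-positive replicates 2 and 3, against 394 and 872 CPM in GFP-negative replicates 2 and 6. The lower GFP-negative library was well above the higher GFP-positive one. Means were 87.1 ± 26.3 CPM for GFP-positive and 633 ± 338 CPM for GFP-negative libraries (SD, n = 2 each), a 7.26-fold lower level, with a log2 fold change of -2.86 ± 0.48 (edgeR adjusted p = 0.0342). The order of the 4 libraries in Fstl5 was the reverse of their order in summed rod markers. It was also their order in summed amacrine markers, so rod and amacrine content cannot be told apart. The lack of overlap fixes much of such an order, and the part of either was not tested. The libraries closest in rod markers differed 3.72-fold in Fstl5, at 106 CPM in GFP-positive and 394 CPM in GFP-negative replicate 2. Direction held in all 14 alternatives, with an adjusted p of 1.84e-07 (DESeq2) to 0.359. The same 3 omissions ended the edgeR call of Fstl5: its adjusted p was 0.124 with GFP-positive replicate 2 left out, 0.359 with replicate 3 of that fraction left out and 0.175 with GFP-negative replicate 6 left out. The log2 fold change lay between -2.17 with GFP-negative replicate 6 omitted and -3.38 with GFP-negative replicate 2 omitted.

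Among follistatin-like genes, Fstl4 had 28.0 and 11.9 CPM in GFP-positive cells, against 16.3 and 42.4 CPM in GFP-negative cells, which overlapped (log2 fold change -0.55 ± 0.56, edgeR adjusted p = 0.741). Fstl1 lay between 9.57 and 20.4 CPM over all libraries, also with overlap. The ratio of Fstl5 to Fstl4 per length was 1.78 and 2.73 in GFP-positive libraries, against 11.4 and 9.72 in GFP-negative libraries. Per length Fstl5 was among the most abundant members, with 11.4 and 7.4 RPKM in GFP-positive cells, against 42.5 and 94.1 RPKM in GFP-negative cells. It took 4.92% and 3.67% of the members' summed RPKM in the GFP-positive libraries, against 15.4% and 24.3% in the GFP-negative libraries.

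The 250 bases before an annotated RefSeq transcription start (GRCm38.p6, plus strand; a start inside the gene for Fstl5, the first start for Gdf10 and Id4) are shown for Fstl5 and Gdf10, 2 of the members furthest apart between the fractions, and for Id4, the most abundant of the response genes described below. Capitals mark matches, on either strand, to the SMAD half-site CAGAC (reverse complement GTCTG), to the BMP-responsive SMAD element GGCGCC, which is its own reverse complement, and to the E-box CANNTG.
Fstl5, chr3:76075333-76075582: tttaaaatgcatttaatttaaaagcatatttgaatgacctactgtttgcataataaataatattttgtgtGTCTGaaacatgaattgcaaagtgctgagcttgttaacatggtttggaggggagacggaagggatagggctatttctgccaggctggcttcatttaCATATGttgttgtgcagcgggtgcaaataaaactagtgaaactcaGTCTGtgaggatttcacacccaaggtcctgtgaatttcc
Gdf10, chr14:33923337-33923586: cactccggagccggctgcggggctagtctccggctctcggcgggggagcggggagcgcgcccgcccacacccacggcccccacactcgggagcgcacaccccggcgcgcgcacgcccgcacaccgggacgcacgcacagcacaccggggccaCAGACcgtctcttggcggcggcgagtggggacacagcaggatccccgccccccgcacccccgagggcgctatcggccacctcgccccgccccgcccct
Id4, chr13:48260866-48261115: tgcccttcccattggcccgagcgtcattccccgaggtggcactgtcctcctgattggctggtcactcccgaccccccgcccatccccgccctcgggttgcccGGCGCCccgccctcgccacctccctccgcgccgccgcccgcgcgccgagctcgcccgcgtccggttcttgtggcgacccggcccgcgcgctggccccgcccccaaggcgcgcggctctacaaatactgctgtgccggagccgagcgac
Counted back from the start, the first bases of the half-site matches stood at -180 and -39 in Fstl5, where the E-box stood at -84, and at -98 in Gdf10. The GGCGCC match of Id4 stood at -148. Of 32851 promoter windows of this length in the RefSeq table, 42.2% held the half-site, 9.59% held GGCGCC and 66.2% held the E-box, so each match is a description of these letters. The table had an entry for 29 of the 38 members.

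Of the BMP and GDF ligands, Bmp7 was the most abundant per length and Gdf10 stood furthest below its GFP-negative level, but none passed the test. Gdf10, also called BMP3b (ENSMUSG00000021943; chromosome 14 at 33923587 to 33937983, plus strand, GRCm38), had 5.51 and 0.841 CPM in GFP-positive cells, against 39.3 and 36.2 CPM in GFP-negative cells. The GFP-negative libraries were alike, and both GFP-positive libraries were below them. The mean was 11.9-fold lower in GFP-positive cells, with a log2 fold change of -3.58 ± 0.67 and an edgeR adjusted p of 0.0513, just outside the threshold. It came inside the threshold in 5 of 14 alternatives, with a range of 5.85e-05 to 0.253, and all 14 kept the direction. The log2 fold change was -2.78 with GFP-positive replicate 3 left out and -5.50 with GFP-positive replicate 2 left out. In the pair of libraries closest in rod markers Gdf10 was 7.13-fold lower in GFP-positive replicate 2, a direction fixed by the lack of overlap.

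Bmp7 (chromosome 2 at 172868012 to 172940321, minus strand, GRCm38) had 74.4 and 39.4 CPM in GFP-positive cells, against 115 and 279 CPM in GFP-negative cells. The groups did not overlap, but the GFP-negative libraries differed from each other by more than the nearest libraries of the 2 fractions did (log2 fold change -1.79 ± 0.49, edgeR adjusted p = 0.171). DESeq2 gave an adjusted p of 0.0154 for Bmp7, and edgeR 0.0478 without GFP-negative replicate 2. Its 4 libraries also ran in the reverse order of the summed rod markers, which is the order of the summed amacrine markers. The pair closest in rod markers differed 1.54-fold, and the part of rod or amacrine content was not tested.

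Gdf11, an activin-like ligand that signals through SMAD2 and SMAD3, had its higher values in the GFP-positive fraction, with 42.7 and 44.8 CPM in GFP-positive cells, against 22.3 and 29.2 CPM in GFP-negative cells (log2 fold change 0.76 ± 0.33, edgeR adjusted p = 0.387). The ranges did not overlap and were narrow. Per length, the ratio of Bmp7 to Gdf11 was 1.76 and 0.89 in GFP-positive cells, against 5.2 and 9.65 in GFP-negative cells. Bmp7 exceeded Gdf11 in every library except GFP-positive replicate 3.

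The remaining BMP ligands were low. Bmp2 had 48 to 175 counts, Bmp5 2 to 42 and Bmp6 0 to 41. Bmp6 had 10 and 0 counts in GFP-positive libraries, against 41 and 16 counts in GFP-negative libraries (edgeR adjusted p = 0.461). Bmp4 had 44 and 0 counts in GFP-positive libraries, against 0 and 0 counts in GFP-negative libraries; it was seen in 1 library alone and was not tested. Of the members, 33 had at least 1 count in every library.

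The activin subunits are encoded by Inhba and Inhbb, whose products pair into activin A, AB and B. Inhba was close to undetected, with 22 and 0 counts in GFP-positive libraries, against 22 and 19 counts in GFP-negative libraries. A count of 3 corresponds to 0.0631 CPM in GFP-positive replicate 3, which is the level that its 0 allows. Inhbb had 9.36 and 22.8 CPM in GFP-positive cells, against 10.6 and 2.68 CPM in GFP-negative cells, so the fractions overlapped (log2 fold change 1.26 ± 0.69, edgeR adjusted p = 0.507; 0.48 with GFP-positive replicate 3 and 2.53 with GFP-negative replicate 2 left out). Per length, the ratio of Fst to Inhbb was 0.0325 and 0.0573 in GFP-positive libraries, against 2.75 and 36.4 in GFP-negative libraries. Follistatin RNA was below activin beta B RNA in both GFP-positive libraries and above it in both GFP-negative libraries.

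Of the TGF-beta ligands, Tgfb2 was the most abundant, with 73.9 and 119 CPM in GFP-positive cells, against 74.6 and 61.4 CPM in GFP-negative cells (log2 fold change 0.50 ± 0.34, edgeR adjusted p = 0.591). Tgfb3 had 15.7 and 11.6 CPM in GFP-positive cells, against 12.9 and 12.3 CPM in GFP-negative cells. Tgfb1 was low, at 1.25 to 1.58 CPM over the 4 libraries. All 3 overlapped between the fractions.

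**Figure D2:**
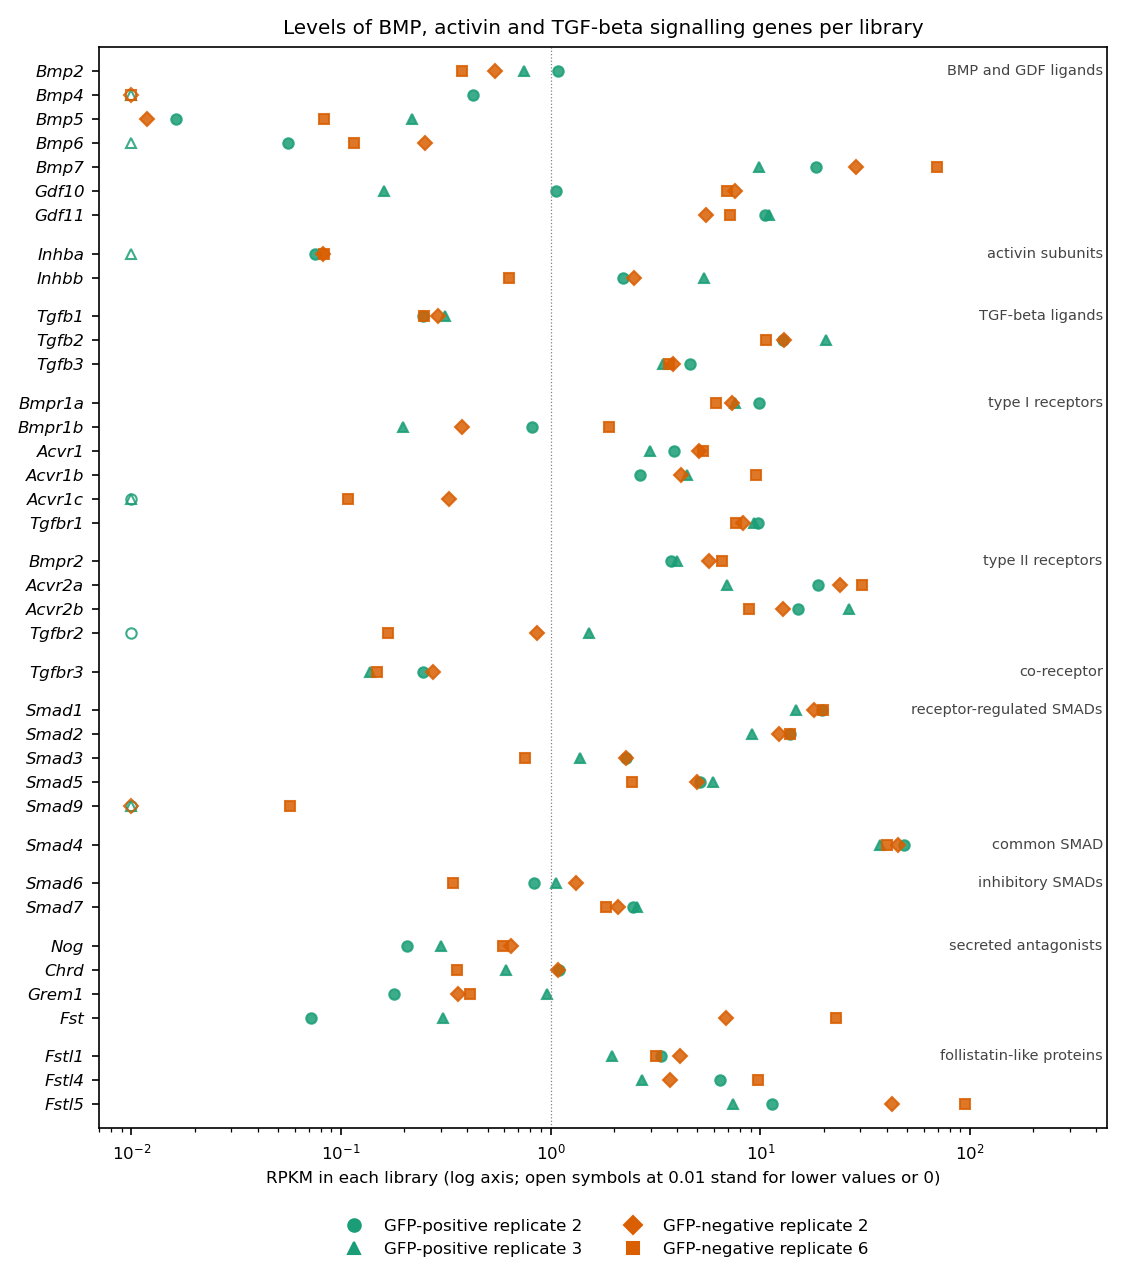
Level of each of the 38 members in each library, in RPKM on a log axis, ordered by role, with GFP-positive libraries in green and GFP-negative libraries in orange; open symbols at 0.01 RPKM stand for lower values or 0. Fst and Fstl5 show wide gaps between the fractions, while Smad4 lies at 37.3 to 48.6 RPKM in all 4 libraries.

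Receptor genes for all 3 ligand classes were detected, but Tgfbr2, for the TGF-beta type II receptor, had only 1 count in GFP-positive replicate 2. Per length, 19 of the 38 members stood at or above 1 RPKM in every library, 10 below 1 RPKM in every library and 9 on both sides. The most abundant type I receptors were Tgfbr1, for the main TGF-beta type I receptor, and Bmpr1a, for a BMP receptor. Tgfbr1 had 9.77 and 9.31 RPKM in GFP-positive cells, against 8.29 and 7.66 RPKM in GFP-negative cells. Bmpr1a had 9.9 and 7.56 RPKM in GFP-positive cells, against 7.35 and 6.17 RPKM in GFP-negative cells. Both were slightly higher in GFP-positive libraries with no overlap, yet their log2 fold changes, 0.26 ± 0.29 for Tgfbr1 and 0.37 ± 0.32 for Bmpr1a, were about the size of their errors (edgeR adjusted p = 0.779 and 0.687).

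Acvr1c encodes the type I receptor ALK7, which binds Nodal and activin-like ligands. It lies on chromosome 2 at 58267453 to 58357895, minus strand, GRCm38. It had 0 counts in both GFP-positive libraries, against 127 and 36 counts in GFP-negative libraries (3.04 and 1.01 CPM). Taking 3 counts over the GFP-positive fraction as the floor, its pooled counts put it 65.3-fold or more lower there. This bound covers counting error only and no spread between libraries. The edgeR adjusted p was 0.165, and only DESeq2 among the alternatives called it (adjusted p = 0.000332). Acvr1c passed the filter on low counts through the GFP-negative libraries only, so these values describe it and are no support for a difference. Even in GFP-negative cells this was 0.327 and 0.108 RPKM, below Acvr1b, another type I receptor gene for activins, which had 4.18 and 9.53 RPKM in the same libraries. The remaining type I receptors, Acvr1, Acvr1b and Bmpr1b, ran from 1.18 to 42.1 CPM and none passed the test.

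The activin type II receptor genes stood in opposite directions without passing the test. Acvr2a had 18.8 and 6.92 RPKM in GFP-positive cells, against 24.1 and 30.6 RPKM in GFP-negative cells (log2 fold change -1.09 ± 0.46, edgeR adjusted p = 0.373). Acvr2b had 15.1 and 26.4 RPKM in GFP-positive cells, against 12.8 and 8.85 RPKM in GFP-negative cells (log2 fold change 0.94 ± 0.37, edgeR adjusted p = 0.344). Neither overlapped between the fractions, and the GFP-positive libraries were further apart from each other than the fractions were at their nearest. The ratio of Acvr2a to Acvr2b was 1.24 and 0.262 in GFP-positive cells, against 1.88 and 3.46 in GFP-negative cells, so Acvr2b was the higher of the pair in GFP-positive replicate 3 alone. Acvr2b followed the order of the libraries in summed rod markers and Acvr2a the reverse order; the part of rod RNA in this was not tested. Of the exonic bases of Acvr2a, 7.8% are shared with Orc4 on the opposite strand, and the sources used here do not say whether counting used strand.

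**Figure D3:**
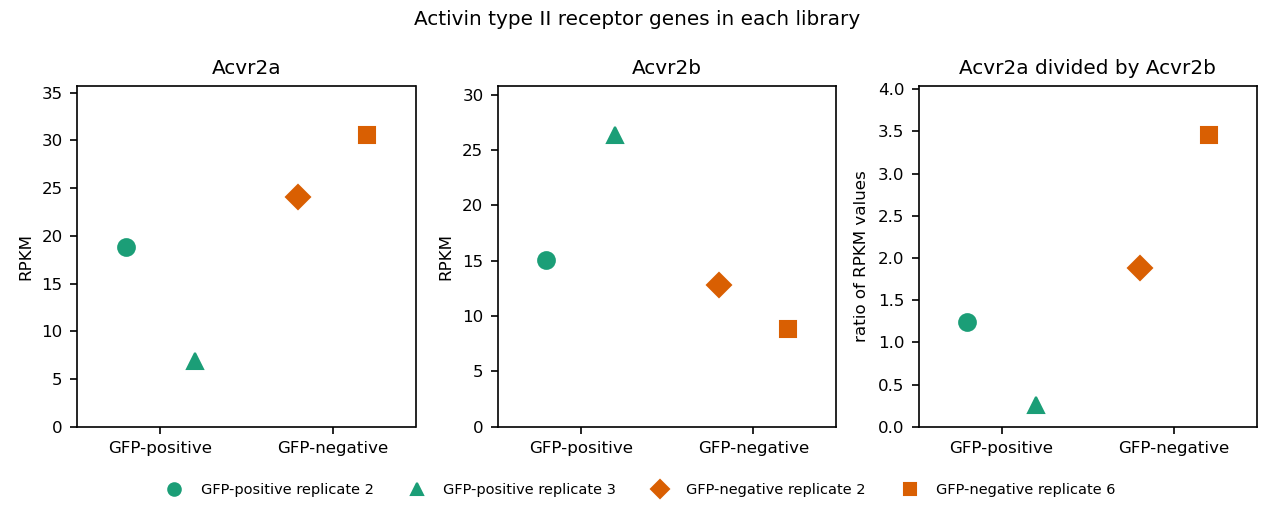
Level of Acvr2a and of Acvr2b in each library in RPKM, and the ratio of the 2 levels (y axes, from 0), for GFP-positive (left) and GFP-negative (right) libraries. Acvr2a is lower and Acvr2b higher in the GFP-positive libraries, and the ratio is lowest, at 0.262, in GFP-positive replicate 3.

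Bmpr2, the BMP type II receptor, lay between 67.1 and 117 CPM and was lower in GFP-positive cells without passing the test (log2 fold change -0.66 ± 0.29, edgeR adjusted p = 0.399). Tgfbr3, for the co-receptor betaglycan, was low at 1.62 and 0.904 CPM in GFP-positive cells, against 1.79 and 0.977 CPM in GFP-negative cells. Tgfbr2, for the TGF-beta type II receptor, was singled out after its values were seen, because its libraries were so far apart: 1 and 591 counts in GFP-positive replicates 2 and 3, against 296 and 49 counts in GFP-negative replicates 2 and 6. The fractions overlapped, and the log2 fold change of 0.54 was smaller than its error of 1.26.

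Smad4, Smad1 and Smad2 varied little between libraries. Smad4, the shared partner of all receptor-regulated SMADs, had 48.6 and 37.3 RPKM in GFP-positive cells, against 45.1 and 40.3 RPKM in GFP-negative cells. The difference of 0.01 ± 0.31 on the log2 scale (edgeR adjusted p = 0.996) turned sign with the scaling. Smad1, of the BMP branch, had 19.6 and 14.8 RPKM in GFP-positive cells, against 18.1 and 19.9 RPKM in GFP-negative cells, and Smad2, of the activin and TGF-beta branch, had 13.8 and 9.09 RPKM in GFP-positive cells, against 12.2 and 13.9 RPKM in GFP-negative cells. All 3 overlapped between the fractions.

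Among the other receptor-regulated SMADs, Smad3 lay between 0.756 and 2.29 RPKM and Smad5 between 2.44 and 5.95 RPKM, each with its lowest value in GFP-negative replicate 6. Smad9 had at most 11 counts in a library and was not tested. Smad1 was the most abundant SMAD of the BMP branch in each library, 2.49 to 8.18 times Smad5 per length, and Smad2 exceeded Smad3 by 5.32 to 18.4 times. The inhibitory Smad7 had 11.2 and 11.7 CPM in GFP-positive cells, against 9.44 and 8.29 CPM in GFP-negative cells (log2 fold change 0.37 ± 0.45, edgeR adjusted p = 0.797). Smad6 had 2.67 and 3.41 CPM in GFP-positive cells, against 4.23 and 1.09 CPM in GFP-negative cells, which overlapped.

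Beyond the members, 68 other genes of the pathway were read off the same fit, and 55 were tested. Of these, 2 were called, both lower in GFP-positive cells: Smoc1, 1 of 11 tested secreted antagonists, and Id4, 1 of 9 tested response genes. Of all tested genes 1.10% were called, 0.870% lower. Nothing passed among 8 tested ligands, 7 receptors and co-receptors, 6 maturation proteases and 14 intracellular regulators. The median log2 fold change over the 55 tested genes was -0.18, with 21 above and 34 below 0, beside 0.04 over all tested genes, with 9408 above and 8532 below 0.

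Smoc1 encodes a secreted calcium-binding matrix protein that antagonises BMP signalling in Xenopus; it lies on chromosome 12 at 81026808 to 81186414, plus strand, GRCm38. It had 16.2 and 4.14 CPM in GFP-positive replicates 2 and 3, against 86.7 and 140 CPM in GFP-negative replicates 2 and 6. No GFP-positive library came near the GFP-negative ones. It was 11.1-fold lower in GFP-positive cells by the means, with a log2 fold change of -3.48 ± 0.59 (edgeR adjusted p = 0.0346; 9.72e-07 to 0.253 over 14 alternatives), and the pair closest in rod markers differed 5.36-fold. It was no longer called without GFP-positive replicate 3, at an edgeR adjusted p of 0.113 and a log2 fold change of -2.81, or without GFP-negative replicate 6, at 0.253; without GFP-positive replicate 2 the log2 fold change was -4.79. The stricter filter (edgeR adjusted p = 0.0672), no filter (0.07) and the legacy fit (0.132) also ended the call.

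Id4 encodes an inhibitor of basic helix-loop-helix transcription factors, and Id genes are well-known transcriptional responders to BMP and SMAD1/5. The gene lies on chromosome 13 at 48261228 to 48266026, plus strand, GRCm38, just after the promoter window printed above. It had 180 and 129 CPM in GFP-positive cells, against 643 and 964 CPM in GFP-negative cells, with no overlap and the GFP-negative libraries several times higher. It was 5.19-fold lower in GFP-positive cells (log2 fold change -2.38 ± 0.40, edgeR adjusted p = 0.0342; 8.99e-08 to 0.434 over 14 alternatives). Id4 was no longer called by edgeR on leaving out GFP-positive replicate 2, with an adjusted p of 0.146, GFP-positive replicate 3, with 0.434, or GFP-negative replicate 6, with 0.179; its log2 fold change lay between -2.05 and -2.70 over the single omissions, lowest in size without GFP-negative replicate 6 and highest without GFP-negative replicate 2. It was not called with no filter (edgeR adjusted p = 0.0506) or the legacy fit (0.0951). Both Smoc1 and Id4 ran in the reverse order of the summed rod markers over the 4 libraries. That is also the order of the summed amacrine markers, so rod and amacrine content cannot be told apart. The part of either was not tested. The pair closest in rod markers differed 3.56-fold in Id4.

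Id1, Id2 and Id3 did not pass the test. Id2 had 41.4 and 39.9 CPM in GFP-positive cells, against 99.3 and 120 CPM in GFP-negative cells (log2 fold change -1.43 ± 0.30, edgeR adjusted p = 0.0752). Id1 had 7.04 and 7.47 CPM in GFP-positive cells, against 9.11 and 3.1 CPM in GFP-negative cells, and Id3 had 17.2 and 43.0 CPM in GFP-positive cells, against 31.8 and 10.3 CPM in GFP-negative cells. Id1 and Id3 overlapped between the fractions, with their lowest value in GFP-negative replicate 6. Their log2 fold changes, 0.23 ± 0.61 and 0.51 ± 0.59, were smaller than their errors, so no direction is shown for either. In the pair of libraries closest in rod markers, Id1, Id2 and Id3 were 1.29-fold, 2.4-fold and 1.85-fold lower in GFP-positive replicate 2. Between GFP-positive replicate 3 and GFP-negative replicate 6, Id1 and Id3 went the other way, at 7.47 against 3.1 CPM and 43.0 against 10.3 CPM. A single pair of libraries therefore gives no direction for Id1 or Id3. Hey1, a repressor gene that responds to Notch as well as to BMP, had 18.8 and 18.2 CPM in GFP-positive cells, against 51.3 and 78.6 CPM in GFP-negative cells (log2 fold change -1.81 ± 0.35, edgeR adjusted p = 0.0553). Bambi, on the list of receptors and co-receptors, encodes a decoy receptor that lacks the kinase domain. It had 8.75 and 9.32 CPM in GFP-positive cells, against 19.6 and 44.1 CPM in GFP-negative cells (log2 fold change -1.81 ± 0.47, edgeR adjusted p = 0.154). Atoh8, a BMP-responsive transcription factor gene, is on the response list with the Id genes and Hey1. It had 3.26 and 2.29 CPM in GFP-positive cells, against 1.15 and 0.922 CPM in GFP-negative cells. Atoh8 was higher without overlap but not past the test (log2 fold change 1.41 ± 0.78, edgeR adjusted p = 0.514). Klf10, a TGF-beta-induced gene, had 55.4 and 57.5 CPM in GFP-positive cells, against 55.3 and 22.6 CPM in GFP-negative cells. Ccn2, also on that list, had 1.6 and 5.22 CPM in GFP-positive cells, against 33.8 and 8.69 CPM in GFP-negative cells. It was lower without overlap but not past the test (log2 fold change -2.64 ± 0.77, edgeR adjusted p = 0.202). Of the 9 tested response genes, 4 had log2 fold changes above and 5 below 0. Id1, Id2, Id3, Hey1, Bambi, Atoh8, Klf10 and Ccn2 were named after their values were seen.

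**Figure D4:**
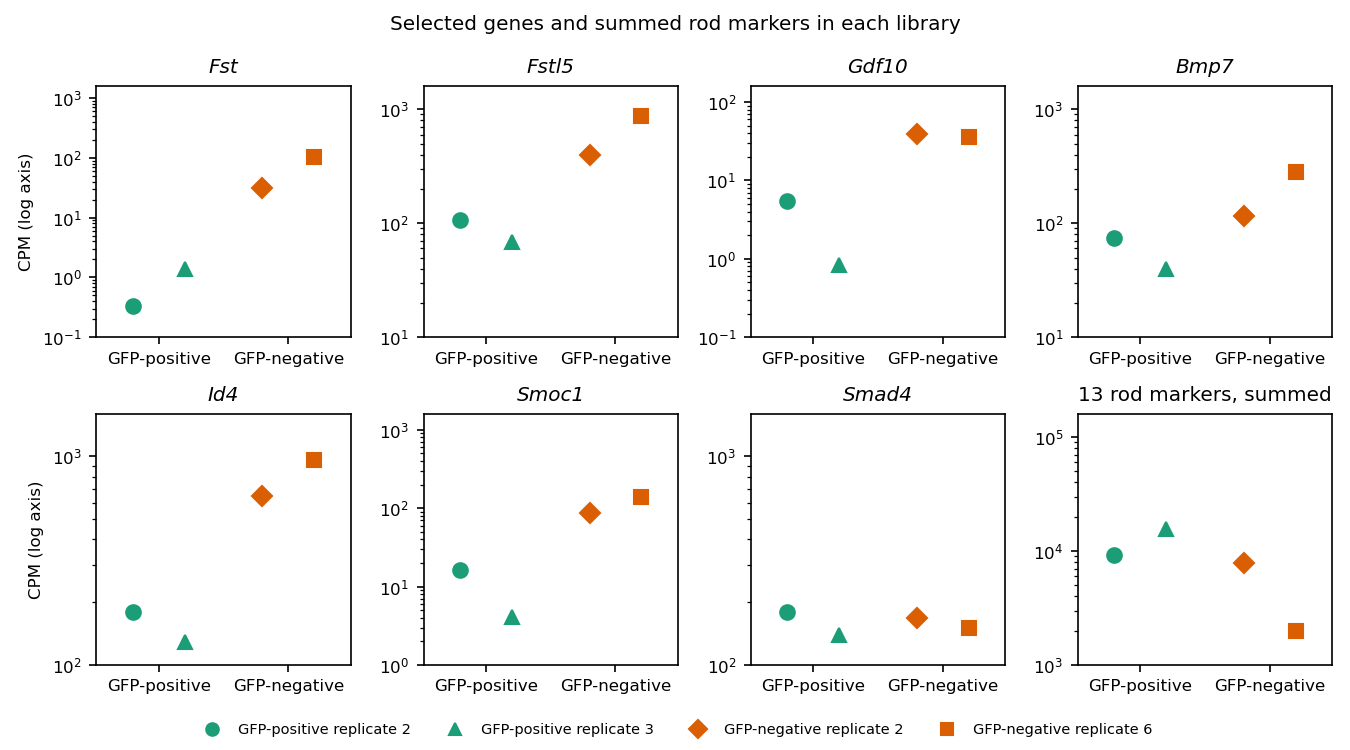
CPM in each library (log axes) of Fst, Fstl5, Gdf10, Bmp7, Id4, Smoc1 and Smad4 and of 13 rod markers summed, with GFP-positive libraries on the left and GFP-negative libraries on the right of each panel. All except Smad4, which overlaps between the fractions, are lower in both GFP-positive libraries, and the rod sum, at 9180 and 15500 CPM in GFP-positive against 7920 and 1990 CPM in GFP-negative libraries, is higher there.

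The most abundant gene per length in each other list did not pass the test. Inha, for the inhibin alpha subunit, had 19.9 and 13.1 RPKM in GFP-positive cells, against 17.6 and 12.9 RPKM in GFP-negative cells. Rgmb, for a BMP co-receptor also called DRAGON, had 15.9 and 11.5 RPKM in GFP-positive cells, against 14.1 and 23.0 RPKM in GFP-negative cells. Furin, a protease that matures the ligand precursors, had 10.4 and 7.04 RPKM in GFP-positive cells, against 8.77 and 7.32 RPKM in GFP-negative cells. Pmepa1, whose product limits TGF-beta signalling, had 22.6 and 36.4 RPKM in GFP-positive cells, against 17.7 and 23.8 RPKM in GFP-negative cells. All 4 overlapped between the fractions.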

How the data were processed

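The authors deposited raw read counts per gene, all whole numbers. Per the submitters' processing notes, STAR 2.7.3a, Trimmomatic, MultiQC, limma and GRCm38 were used, in unstated roles; which tool counted, and with which strand setting, is not stated in the sources used here. Libraries were made with the SMART-Seq ultra low input kit, per the labels' protocols. A second table of scaled values was not used here.

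Groups came from the fluorescence label, with 2 libraries per fraction of the 4 replicates stated. Counts were compared with edgeR 4.0.16 (R 4.3.3): TMM scaling, a filterByExpr minimum of 10 counts (15 in total), robust glmQLFit with the bias-adjusted deviance, glmQLFTest and Benjamini-Hochberg adjustment over 17940 genes, GFP-positive minus GFP-negative, with 2 residual degrees of freedom. A single gene's exact permutation test cannot go below 0.333. Standard errors were obtained by dividing the size of the log2 fold change by the root of F. CPM used effective library sizes, and RPKM divided CPM by the union of exons in GENCODE mouse release 21, where 55230 of 55471 gene IDs were found. Floors (3 counts, 0.0631 to 0.0838 CPM) cover counting error only. The steps were also run on simulated data, drawn with a spread set by mean level alone and no differences in cell mixture. That run therefore gives no support for the calls here.

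Per-library values are given for called members, for tested members whose fractions do not overlap and whose log2 fold change is 1 or more in size, and for the 2 most abundant per length in each role; of the other pathway genes, called ones and the most abundant of each list are given. The members, lists and rules were chosen with earlier results of these data known. Alternatives were 3 other scalings, a fit without the filter, one with a floor of 5 CPM in 2 libraries, DESeq2 1.42.0, limma-voom (limma 3.58.1), non-robust and legacy quasi-likelihood fits, leaving out rod, mitochondrial and hemoglobin genes, and leaving out each library.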

Additional observations from a re-analysis of the deposited data

How the results depend on the processing

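With 2 libraries per fraction and a biological coefficient of variation of 55.4%, calls rest on the spread edgeR shares across genes. Over all genes, 198 calls became 106 with no filter, 859 with DESeq2, 92 with limma-voom, 48 with the legacy quasi-likelihood fit (chosen after seeing the data) and 1 to 336 on leaving out a library: GFP-positive replicate 2 left 108 calls and replicate 3 left 5 when omitted, and GFP-negative replicate 2 left 336 and replicate 6 left 1. Of the members, 2 calls became 1 with no filter (Fst), 5 with DESeq2 (with Acvr1c, Bmp7 and Gdf10 added), 1 with limma-voom (Fstl5), 0 with the legacy fit and 0 to 3 on leaving out a library: 1 without GFP-positive replicate 2 (Gdf10), 0 without GFP-positive replicate 3 or GFP-negative replicate 6, and 3 without GFP-negative replicate 2. The 2 other pathway calls became 0 with no filter, 6 with DESeq2, 0 with the legacy fit and 0 to 4 on leaving out a library. The stricter filter gave 3 pathway calls (Hey1, Id2 and Id4), without Smoc1. Beside the counts of 0, 8 of 36 members and 9 of 55 pathway genes stood at an unadjusted p under 0.05 in edgeR on all libraries, against 12.6% of all tested genes.

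Fst, Fstl5, Gdf10, Bmp7, Id4 and Smoc1 kept their direction in all 14 alternatives. This says little about them, because their fractions do not overlap and leaving out a library could hardly turn the sign. Members with little difference turned sign: Smad1 was at 0.03 with library size only, Smad4 at -0.01 with RLE, -0.02 with no filter and -0.01 with DESeq2, and Tgfbr2 at -2.29 with limma-voom. Leaving out a library gave log2 fold changes of -0.15 to 0.31 for Tgfb3, -0.65 to 0.30 for Tgfbr3, -0.38 to 0.04 for Smad1, -0.54 to 0.07 for Smad2, -0.21 to 0.18 for Smad4, -0.47 to 1.42 for Smad6, -0.33 to 1.20 for Chrd, -1.33 to 0.30 for Fstl4 and -7.43 to 2.14 for Tgfbr2. The cause was not tested. Scaling by library size only moved the median log2 fold change of all tested genes to 0.21, from 0.04. Separate fractions numbered 17 of the tested members with library size only, and 9 of the 10 most abundant members were the same without length scaling. No paired analysis was possible because the fractions share only the replicate number 2, and a block would leave no residual degrees of freedom.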

Other observations

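Tgfbr2, which is also known as a gene of microglia and of vessel cells, ordered the libraries as the sum of 7 microglia markers did. The sums were 31.7 and 97.9 CPM for GFP-positive replicates 2 and 3, against 90.8 and 58.3 CPM in GFP-negative replicates 2 and 6. No microglia marker was at 0. C1qa, C1qb and Aif1 had this order singly, and Csf1r, Tyrobp, Cx3cr1 and P2ry12 did not. Cx3cr1 and P2ry12 were lowest, at 5.99 and 3.15 CPM, in GFP-positive replicate 3, where Tgfbr2 was highest. The vessel receptor genes Eng and Acvrl1 had 16 and 217 counts and 7 and 106 counts in the GFP-positive libraries, against 12 and 4 counts and 123 and 13 counts in the GFP-negative libraries. The sum of 11 endothelial and pericyte markers, 122 and 123 CPM in GFP-positive against 94.6 and 64.2 CPM in GFP-negative libraries, was mostly Kdr. The other 10 summed to 3.89 and 54.2 CPM in GFP-positive against 15 and 5.64 CPM in GFP-negative libraries, also the library order of Tgfbr2, with Cdh5 and Tek at 0 in replicate 2 of both fractions. These genes were chosen after their values were seen, and the part of microglia and vessel cells in the Tgfbr2 values was not tested.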
